A study of Mus musculus with 4 samples.

Results

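The genes described here encode the collagens, the laminin chains, the integrin subunits and 5 proteins that link them, which are the nidogens Nid1 and Nid2, agrin (Agrn), perlecan (Hspg2) and fibronectin (Fn1). They were chosen by a rule on gene symbols that uses no measured value, though earlier results of these data were known. The rule found 79 of the 21830 genes analyzed, namely 43 collagen chains, 11 laminin chains, 12 integrin α subunits, 8 integrin β subunits and the 5 linking proteins. RNA came from the retinas of mice labelled as strain FVB/N, all carrying a transgene in which a Hes1 promoter fragment drives destabilized EGFP, and none received a treatment. Retinal cells at postnatal day 1 (P1) or postnatal day 4 (P4) were dissociated with trypsin and sorted into EGFP-positive cells (pHes1_EPCs) and EGFP-negative cells (pHes1_ENCs). Each fraction at each age was sequenced as 1 library, 4 in all. EGFP reports the activity of the transgene and not the Hes1 protein, so cells were sorted on a reporter, and the number of animals behind each sort is not given in the sources used here.

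Collagens, laminins, nidogens, agrin and perlecan build the extracellular matrix, the material between and beneath cells. In the retina a basement membrane, the inner limiting membrane, separates the endfeet of Müller glia from the vitreous, whose fibrils are made mostly of collagen II with collagen IX on their surface. Laminins form a sheet of trimers, each with an α, a β and a γ chain, and collagen IV forms a second network that nidogens and perlecan join to it. Integrins are receptors of 1 α and 1 β subunit in the cell membrane, and they bind these proteins outside the cell and the actin skeleton within it.

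With 1 library in each group, no difference could be set against a spread between samples, and no p-value is given. Levels are FPKM, that is fragments scaled to the length of the transcript and to the mapped total of the library, so they can be compared between genes. A difference is log2(FPKM + 1) in one library minus that in another, which understates the change of genes with a low FPKM, and a gene was called higher or lower when the difference exceeded 1, that is 2-fold. Ratios of FPKM are given without the added 1, with the range that the 95% intervals of Cufflinks allow, and these ranges cover counting error only. Where 2 FPKM are given for an age without their fractions, the first is that of pHes1_ENCs and the second that of pHes1_EPCs. The interval widths correspond to 10.8 to 11.4 in units of 1e6 reads for each library. Of marker genes, 9 of 11 for Müller glia and 8 of 8 for S phase were called higher in pHes1_EPCs at both ages, and 6 of 7 for rods were called lower at both ages. In RNA from sorted populations, fewer cells of a type and less RNA per cell cannot be told apart.

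Taken as a sum, the 79 genes had more RNA in the EGFP-positive than in the EGFP-negative fraction at both ages. Their FPKM summed to 298 in P1 pHes1_ENCs and 697 in P1 pHes1_EPCs, a ratio of 2.34, and to 186 in P4 pHes1_ENCs and 736 in P4 pHes1_EPCs, a ratio of 3.95. They made up 0.107% and 0.236% of the FPKM of all genes at P1 and 0.0612% and 0.198% at P4, in the same order. A few genes carried most of this sum, and the 5 highest held 56.1% to 66.5% of it in each library. In pHes1_EPCs the highest was Col2a1, with 20.3% of the sum at P1 and 31.2% at P4, whereas in pHes1_ENCs it was Agrn, with 23.1% at P1 and 26.1% at P4. An FPKM of 1 in at least 1 library was reached by 43 of the 79 genes and an FPKM of 10 by 17 genes. The other 36 stayed below 1 everywhere, with a highest value of 0.783 for Nid2 in P4 pHes1_EPCs.

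**Figure D1:**
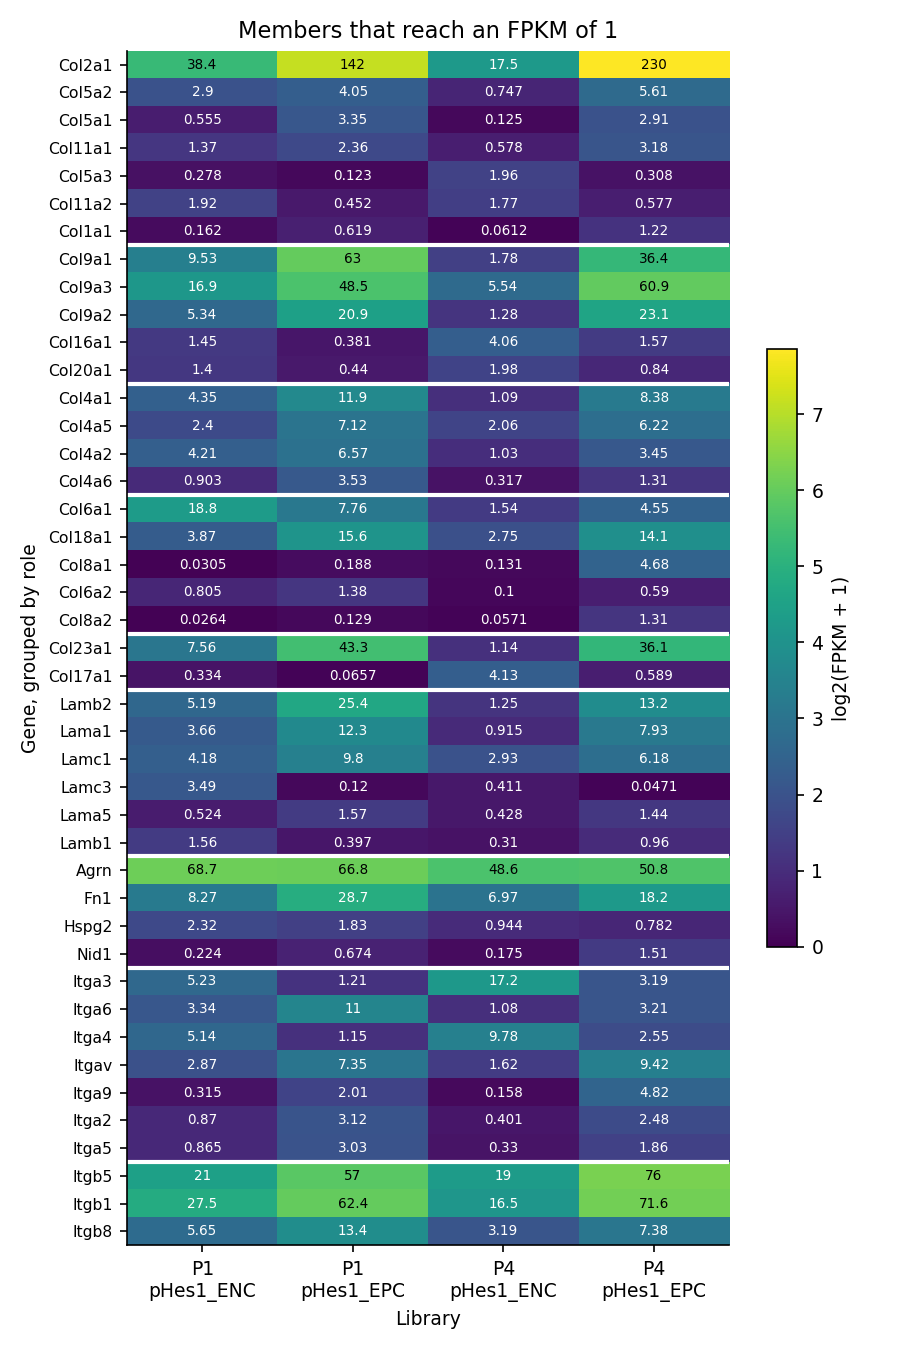
FPKM of the 43 genes that reach an FPKM of 1, printed in each cell and colored by log2(FPKM + 1), with the 4 libraries as columns and the genes grouped by role, from fibril-forming collagens at the top to integrin β subunits at the bottom. Col2a1 in P4 pHes1_EPCs, at 230, is the brightest cell, and Agrn has like levels in the columns of the same age.

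At P1, 22 of the 79 genes were called higher in pHes1_EPCs and 5 were called lower, against 6.10% higher and 6.79% lower among all genes. At P4, 28 were called higher and 4 lower, against 9.85% and 5.42%. Of these, 20 genes were called higher at both ages (4.61% of all genes), 2 were called lower at both ages (3.24%), and 1, Col6a1, was called in opposite directions (0.137%). The median difference over the 79 genes was 0.09 at P1 and 0.14 at P4, beside a median of 0 over all genes at both ages. With 0.1 in place of the added 1 it was 0.53 and 0.83, and among the genes that reached an FPKM of 1 in a compared library it was 1.12 and 1.24. The 36 genes below an FPKM of 1 could not be called, because the added 1 keeps their differences below the threshold. By class, collagens gave 10 higher calls at P1 and 16 at P4 among 43, integrins 8 and 8 among 20, laminin chains 3 and 2 among 11, and the linking proteins 1 and 2 among 5. The pHes1_EPC library at P4 had the largest FPKM sum, 372002 beside 277425 to 303864 in the others. The calls at P4 depend on how libraries are scaled, and 18 instead of 28 genes were called higher, with 5 lower, once all libraries were given the same FPKM sum, beside 7.03% higher and 7.64% lower among all genes under that scaling.

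**Figure D2:**
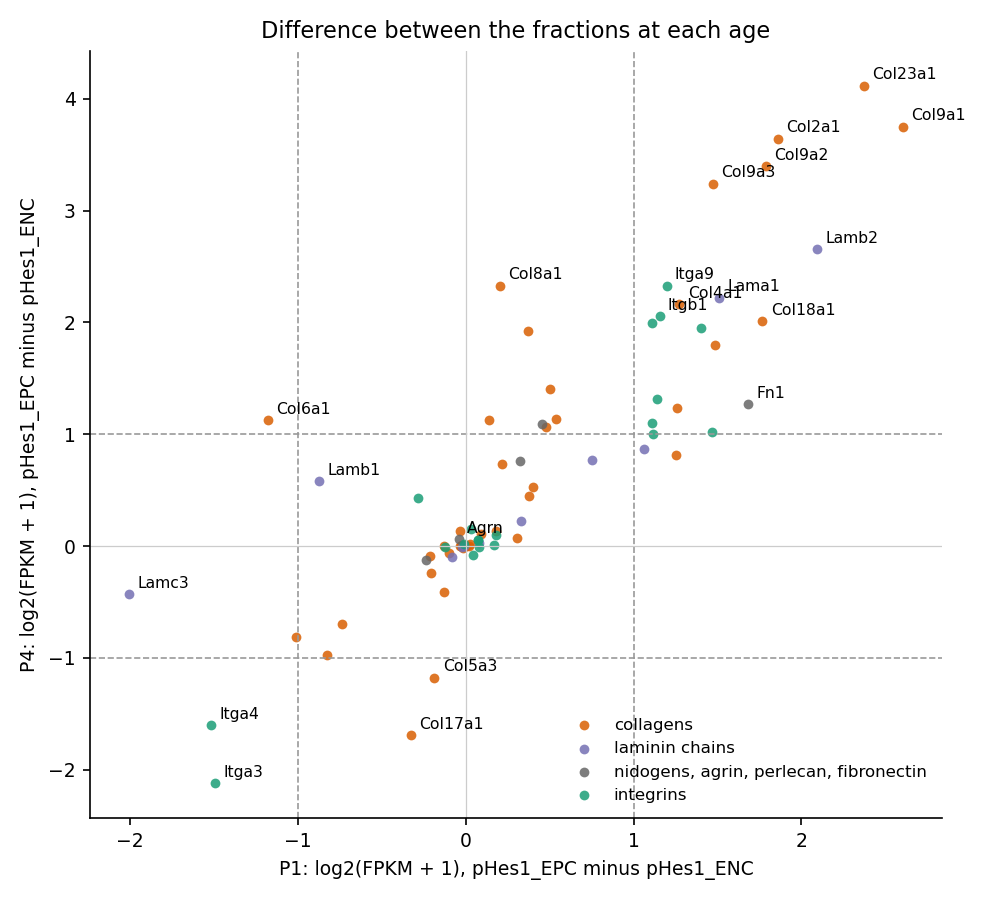
Difference in log2(FPKM + 1) between pHes1_EPCs and pHes1_ENCs at P1 (horizontal axis) and P4 (vertical axis), with 1 point for each of the 79 genes, colored by class, and dashed lines at the 2-fold threshold. The 20 genes beyond both lines at the upper right are led by Col23a1 and Col9a1, Itga3 and Itga4 stand alone at the lower left, and Col6a1 lies at the upper left.

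Fibril-forming collagens assemble into the cross-striated fibers of vitreous, cartilage and skin. Among the 11 genes of this class, Col2a1, the chain of collagen II, was by far the highest. The gene spans chr15:97806033-97835155 in NCBI37/mm9. Its FPKM was 38.4 in P1 pHes1_ENCs, 142 in P1 pHes1_EPCs, 17.5 in P4 pHes1_ENCs and 230 in P4 pHes1_EPCs. The ratio between the fractions was 3.70 (range 3.52 to 3.92) at P1 and 13.1 (range 12.4 to 14.3) at P4. The larger ratio at P4 came from both sides, as Col2a1 had 1.62 times more FPKM at P4 than at P1 in pHes1_EPCs and 2.19 times less in pHes1_ENCs.

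The minor fibrillar chains, which join collagen II or collagen I fibrils and limit their width, had much lower levels. Col5a1, the α1 chain of collagen V, had FPKM of 0.555 in P1 pHes1_ENCs, 3.35 in P1 pHes1_EPCs, 0.125 in P4 pHes1_ENCs and 2.91 in P4 pHes1_EPCs. Its α2 chain, Col5a2, had 2.90 in P1 pHes1_ENCs, 4.05 in P1 pHes1_EPCs, 0.747 in P4 pHes1_ENCs and 5.61 in P4 pHes1_EPCs, so that only the P4 difference, 1.92, was called. Col11a1, the collagen XI chain that starts collagen II fibrils, had 1.37 and 2.36 at P1, then 0.578 and 3.18 at P4, with a called difference of 1.41 at P4. These 3 chains were higher in pHes1_EPCs, and their P4 ratios were 23.4 (range 15.8 to 39.8), 7.51 (range 5.87 to 9.89) and 5.51 (range 4.21 to 7.48). The partner chains of the same collagens lay the other way. Col11a2 had 1.92 in P1 pHes1_ENCs, 0.452 in P1 pHes1_EPCs, 1.77 in P4 pHes1_ENCs and 0.577 in P4 pHes1_EPCs, with differences of -1.01 and -0.81. Col5a3 had 0.278 and 0.123 at P1, then 1.96 and 0.308 at P4, a difference of -1.18. Col11a1, Col11a2 and Col5a3 are outside the rule for named genes and were chosen after their values were seen. Collagen I, the main collagen of connective tissue, was low. Col1a1 reached 0.619 and 1.22 in pHes1_EPCs at P1 and P4, beside 0.162 and 0.0612 in pHes1_ENCs, while Col1a2 and Col3a1, a chain of collagens I and III respectively, stayed at or below 0.394 and 0.0213. Fibroblast markers summed to 4.37, 5.74, 4.21 and 12.5 in P1 pHes1_ENCs, P1 pHes1_EPCs, P4 pHes1_ENCs and P4 pHes1_EPCs, with 1 of 10 called higher, at P4, and their part in the fibrillar collagen values was not tested.

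Collagen IX sits on the surface of collagen II fibrils and consists of an α1, an α2 and an α3 chain. All 3 genes were called higher in pHes1_EPCs at both ages, although they lie on 3 chromosomes. Col9a1 had an FPKM of 9.53 in P1 pHes1_ENCs, 63.0 in P1 pHes1_EPCs, 1.78 in P4 pHes1_ENCs and 36.4 in P4 pHes1_EPCs. For Col9a2 the values were 5.34, 20.9, 1.28 and 23.1, and for Col9a3 16.9, 48.5, 5.54 and 60.9, in the same order. Thus each chain was lowest in pHes1_ENCs at P4, and its ratio between the fractions was larger at P4 than at P1, going from 6.62 to 20.4 for Col9a1, from 3.92 to 18 for Col9a2 and from 2.88 to 11 for Col9a3. The levels of the 3 chains in pHes1_EPCs were not equal, and Col9a2 was the lowest at both ages. The Col9a1 value of 63.0 in P1 pHes1_EPCs lay just above its own Cufflinks interval, 58.5 to 62.9. In NCBI37/mm9, Col9a1 lies next to Col19a1, a related fibril-associated collagen, with 4944 bases between them, but Col19a1 did not exceed 0.116 in any library. The other fibril-associated collagens that reached an FPKM of 1, Col16a1 and Col20a1, had lower levels in pHes1_EPCs. Col16a1 had an FPKM of 1.45 in P1 pHes1_ENCs, 0.381 in P1 pHes1_EPCs, 4.06 in P4 pHes1_ENCs and 1.57 in P4 pHes1_EPCs. Those of Col20a1 were 1.40, 0.440, 1.98 and 0.840, and none of these differences was called. Both were chosen after their values were seen.

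Promoter windows of 300 bases, from 250 before to 50 after the transcription start, were taken from RefSeq on GRCm38.p6, where 58 of the 79 genes had 65 windows. Because the cells were sorted by the promoter of a Notch target, the windows were searched on both strands for TGGGAA, the core letters bound by RBPJ, the DNA-binding partner of Notch. The core was present in 27.7% of the members' windows, in 23.5% of the 17 windows of genes called higher at both ages, and in 25.6% of all 32851 windows. The letters ACAAAG or ACAATG, bound by SOX factors, were in 15.4%, 5.88% and 28.6%, and TAATCC, bound by the photoreceptor factor CRX, was in 3.08%, 5.88% and 7.06%, in the same order. The 3 motifs do not overlap in their letters, and they were chosen after the expression values were known. For the RBPJ core the shares thus differed little from that of all windows. The windows of Col9a1 at chr1:24177360-24177659 (plus strand) and Col9a2 at chr4:121039316-121039615 (plus strand) are shown because these chains of collagen IX have a match. Col9a3, the third chain, had no match in the windows searched. The 6 letters of the core are in capitals. They lie 53 and 85 bases before the start, and a match in letters is not a bound site.
Col9a1: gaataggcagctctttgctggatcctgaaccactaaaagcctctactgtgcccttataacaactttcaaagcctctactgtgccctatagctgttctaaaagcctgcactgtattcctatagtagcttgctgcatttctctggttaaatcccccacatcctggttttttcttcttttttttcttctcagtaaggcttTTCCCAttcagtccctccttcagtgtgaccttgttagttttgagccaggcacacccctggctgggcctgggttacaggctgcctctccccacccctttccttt
Col9a2: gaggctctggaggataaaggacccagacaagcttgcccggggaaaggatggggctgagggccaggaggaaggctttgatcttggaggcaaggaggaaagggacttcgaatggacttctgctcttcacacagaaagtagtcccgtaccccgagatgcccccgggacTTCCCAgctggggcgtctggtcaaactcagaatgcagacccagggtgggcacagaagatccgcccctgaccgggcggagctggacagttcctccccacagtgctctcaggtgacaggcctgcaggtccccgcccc

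Collagen IV forms the network of basement membranes, and its 6 chains are encoded in 3 pairs of neighboring genes that are read away from each other. The pair Col4a1 and Col4a2, 2 bases apart on chromosome 8 in NCBI37/mm9, encodes the form found in nearly all basement membranes. Col4a1 had FPKM of 4.35 in P1 pHes1_ENCs, 11.9 in P1 pHes1_EPCs, 1.09 in P4 pHes1_ENCs and 8.38 in P4 pHes1_EPCs, with differences of 1.27 and 2.17. Col4a2 had 4.21, 6.57, 1.03 and 3.45 in the same order, with differences of 0.54 and 1.13. The pair had like levels in pHes1_ENCs, where Col4a1 was 1.03 and 1.06 times Col4a2 at P1 and P4, but not in pHes1_EPCs, where it was 1.82 and 2.43 times Col4a2. The windows around their starts, at chr8:11312777-11313076 on the minus strand for Col4a1 and chr8:11312555-11312854 on the plus strand for Col4a2 (GRCm38.p6), share 78 bases. They are printed to show this common stretch, in capitals, which reads in opposite directions for the 2 genes.
Col4a1: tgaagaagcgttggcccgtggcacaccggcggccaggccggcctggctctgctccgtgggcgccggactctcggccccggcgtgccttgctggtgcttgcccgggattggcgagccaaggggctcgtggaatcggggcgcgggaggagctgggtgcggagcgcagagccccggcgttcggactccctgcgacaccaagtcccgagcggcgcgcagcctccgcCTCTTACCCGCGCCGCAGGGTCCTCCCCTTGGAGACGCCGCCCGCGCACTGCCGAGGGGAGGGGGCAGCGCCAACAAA
Col4a2: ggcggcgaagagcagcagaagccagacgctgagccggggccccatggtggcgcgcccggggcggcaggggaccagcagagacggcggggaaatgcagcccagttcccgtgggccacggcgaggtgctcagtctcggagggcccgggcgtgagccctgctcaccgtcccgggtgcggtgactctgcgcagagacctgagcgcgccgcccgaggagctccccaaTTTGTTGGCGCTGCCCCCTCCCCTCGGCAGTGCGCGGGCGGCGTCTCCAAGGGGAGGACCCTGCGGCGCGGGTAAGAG

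The pair Col4a5 and Col4a6, 1342 bases apart on the X chromosome, encodes chains of other collagen IV networks. Col4a5 had 2.40 in P1 pHes1_ENCs, 7.12 in P1 pHes1_EPCs, 2.06 in P4 pHes1_ENCs and 6.22 in P4 pHes1_EPCs. Col4a6 had 0.903 and 3.53 at P1 and 0.317 and 1.31 at P4. Both had ratios that barely moved with age, 2.97 and 3.02 for Col4a5 and 3.90 and 4.15 for Col4a6, unlike Col4a1, whose ratio was 2.74 (range 2.36 to 3.17) at P1 and 7.69 (range 6.18 to 9.75) at P4. The third pair, Col4a3 and Col4a4, with 71 bases between them, remained below an FPKM of 1, with 0.756 and 0.385 in P4 pHes1_EPCs. Though it could not be called, Col4a3 was 13.5 times higher in pHes1_EPCs at P4 (range 7.38 to 31.9), and it was chosen after its values were seen. All 6 chains had positive differences at both ages, of which 3 were called at P1 and 3 at P4. As vessels also make collagen IV, endothelial markers were examined. Their summed FPKM was higher in pHes1_EPCs, 66.3 and 223 at P1 against 17 and 211 at P4, and of the 12 markers 2 were called higher and 1 lower at P1, and 3 higher at P4. The marker called lower was Cldn5, a tight junction protein, with 16.3 in P1 pHes1_ENCs and 3.49 in P1 pHes1_EPCs. Kdr, a VEGF receptor, made up most of the sum, with 46.9 and 209 at P1 against 12 and 189 at P4. Egfl7 was also called higher at both ages, with 2.19 and 9.52 at P1 and 1.27 and 15.4 at P4. Flt1 was called higher at P4, with 0.110 and 1.41. Pecam1, a defining marker, was at 0.119 and 0.0250 at P1 and 0.142 and 0.0885 at P4. Cdh5, another, was at 0.0192 and 0.0705 at P1 and listed at 0 in both P4 libraries. Egfl7, Flt1 and Pecam1 were chosen after their values were seen. The mural cell markers, those of the cells around vessels, summed to 4.79 to 6.70 in the 4 libraries. The part of vessel RNA in the values of collagen IV and the laminins was not tested.

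The remaining collagens form filaments, sheets or membrane-bound proteins. Col23a1, a collagen that spans the cell membrane, had the largest difference of all 79 genes at P4. The gene lies at chr11:51103422-51397427 in NCBI37/mm9. Its FPKM was 7.56 in P1 pHes1_ENCs, 43.3 in P1 pHes1_EPCs, 1.14 in P4 pHes1_ENCs and 36.1 in P4 pHes1_EPCs. The ratio was 5.72 (range 5.02 to 6.33) at P1 and 31.8 (range 25.8 to 38.6) at P4. The FPKM was 6.65 times lower at P4 than at P1 in pHes1_ENCs, while in pHes1_EPCs it was also lower, by 1.20 times. Col18a1, the basement membrane collagen whose end releases endostatin, had 3.87 and 15.6 at P1 and 2.75 and 14.1 at P4, with similar ratios of 4.02 and 5.12. Col17a1, a membrane collagen of epithelial anchors, was the opposite case. It was at 0.334 and 0.0657 at P1, and at 4.13 in pHes1_ENCs and 0.589 in pHes1_EPCs at P4, a difference of -1.69, and it was chosen after its values were seen.

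Collagen VI forms beaded filaments from an α1, an α2 and usually an α3 chain. Col6a1, at chr10:76171537-76188789 in NCBI37/mm9, was the gene called in opposite directions. Its FPKM was 18.8 in P1 pHes1_ENCs and 7.76 in P1 pHes1_EPCs, so that it was 2.42 times higher in pHes1_ENCs (range 2.04 to 2.80). In the P4 libraries it was 1.54 for pHes1_ENCs and 4.55 for pHes1_EPCs, 2.95 times higher in pHes1_EPCs (range 2.20 to 3.98). The reversal came with a 12.2-fold lower FPKM at P4 than at P1 in pHes1_ENCs (range 9.51 to 15.4), the largest such decline among the genes that reach an FPKM of 10. The P4 difference of 1.13 was 0.80 to 0.99 under 3 other scalings of the libraries and then no longer called. Col6a2, on the same chromosome with 85387 bases between them, was higher in pHes1_EPCs at both ages, with 0.805 and 1.38 at P1 and 0.10 and 0.590 at P4. Per length, Col6a1 RNA was 23.4 times that of Col6a2 in P1 pHes1_ENCs, 5.61 times in P1 pHes1_EPCs, 15.4 times in P4 pHes1_ENCs and 7.72 times in P4 pHes1_EPCs. Col6a3 did not exceed 0.0131 in any library.

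Col8a1 and Col8a2 encode collagen VIII, which forms sheets under corneal and vascular endothelium. They were the only 2 genes of the 79 called higher at P4 than at P1 in pHes1_EPCs (4.17% of all genes). Col8a2, at 1.04, was close to the threshold and fell to 0.89 to 0.95 under 3 other scalings, which left Col8a1 alone, whereas 12 genes were called with 0.1 in place of the added 1 (7.85% of all genes). Col8a1 was at 0.0305 and 0.188 at P1, in pHes1_ENCs and pHes1_EPCs, and at 0.131 and 4.68 at P4. Col8a2 had 0.0264 and 0.129 at P1, then 0.0571 and 1.31 at P4. Only P4 pHes1_EPCs held an FPKM above 1 of either chain, with a ratio to P4 pHes1_ENCs of 35.6 (range 21.8 to 66.9) for Col8a1. The sum of pigment epithelium markers was also highest in P4 pHes1_EPCs. At P1 the sum was lower in pHes1_EPCs, while 6 of the 8 markers had a positive difference. Their summed FPKM was 5.77, 3.70, 9.39 and 53.5 in P1 pHes1_ENCs, P1 pHes1_EPCs, P4 pHes1_ENCs and P4 pHes1_EPCs. Of the 8 measured, 4 were called higher in pHes1_EPCs at P4 and none at P1. The highest were Ttr, a carrier of retinol and thyroid hormone, at 23.1 in P4 pHes1_EPCs, and Dct, a melanin enzyme, at 15.0. A single lens crystallin gene of 10 lens markers was also called higher at P4, and the part of pigment epithelium and lens RNA in the collagen VIII values was not tested. Both collagen VIII genes were chosen after their values were seen.

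**Figure D3:**
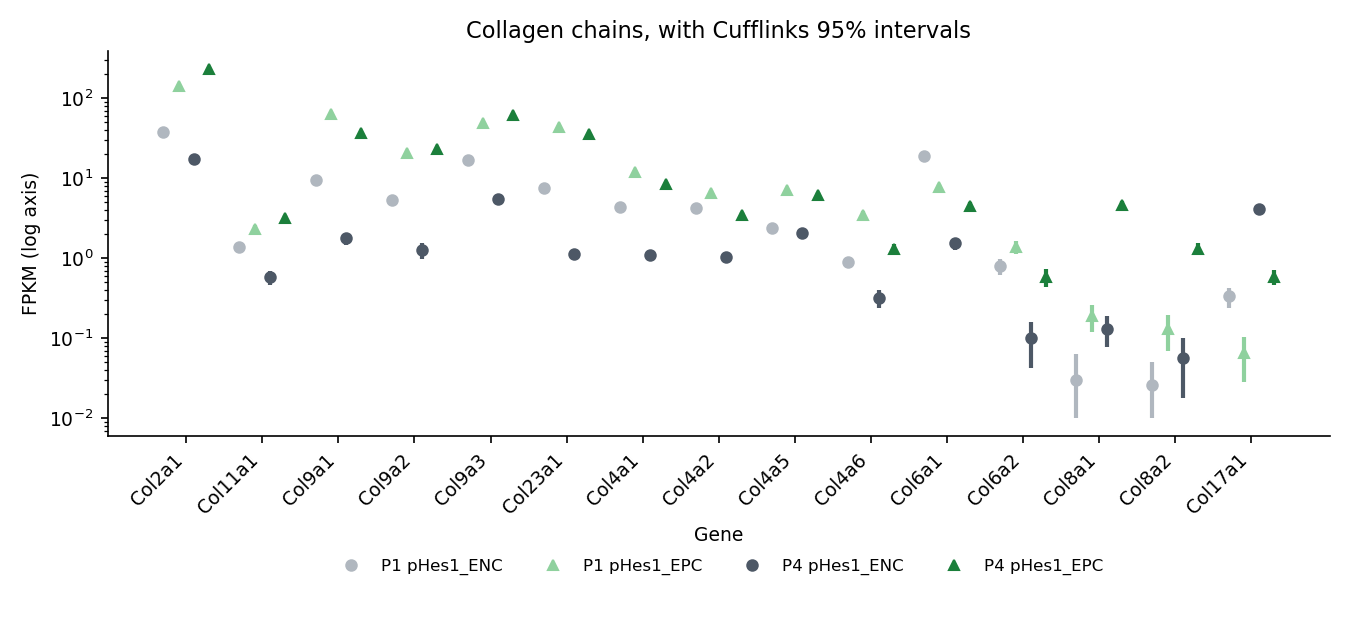
FPKM on a log axis of 15 collagen chains in the 4 libraries, with circles for pHes1_ENCs, triangles for pHes1_EPCs, pale colors for P1 and dark colors for P4, and vertical lines for the 95% intervals of Cufflinks, which are hidden by the symbol where narrow and are cut at 0.01. The triangles lie above the circles for the collagen II, IX, XXIII and IV chains at both ages, while for Col6a1 the P1 circle lies above the P1 triangle and for Col17a1 the circles lie above the triangles at both ages.

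Laminin chains form the trimers that basement membranes start from. Of the 5 α chains, Lama1, that of embryonic basement membranes, was the highest in every library. Its FPKM was 3.66 in P1 pHes1_ENCs, 12.3 in P1 pHes1_EPCs, 0.915 in P4 pHes1_ENCs and 7.93 in P4 pHes1_EPCs, with differences of 1.51 and 2.22. Lama5, the α chain of many adult basement membranes, came next with 0.524 and 1.57 at P1 and 0.428 and 1.44 at P4, and was not called. Lama2, Lama3 and Lama4 did not exceed 0.361.

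Among β chains, Lamb2, whose protein is found in retinal and neuromuscular basement membranes, had 5.19 in P1 pHes1_ENCs, 25.4 in P1 pHes1_EPCs, 1.25 in P4 pHes1_ENCs and 13.2 in P4 pHes1_EPCs. Its ratio was 4.89 (range 4.24 to 5.51) at P1 and 10.6 (range 8.49 to 13.2) at P4. Lamb1, the β chain of most embryonic laminins, did not follow it, with 1.56 and 0.397 at P1 and 0.310 and 0.960 at P4. In P1 pHes1_EPCs the FPKM of Lamb2 was therefore 64.0 times that of Lamb1, beside 3.33 times in P1 pHes1_ENCs. The γ chains also parted. Lamc1, the common γ chain, was at 4.18 and 9.80 at P1 and 2.93 and 6.18 at P4, while Lamc3, a γ chain of retina and brain, was at 3.49 and 0.120 at P1 and 0.411 and 0.0471 at P4. Lamc3 thus was 29.2 times higher in pHes1_ENCs at P1 (range 18.1 to 54.3), and its difference of -2.00 was the lowest of the 79 genes at that age. The highest chain of each kind was Lama1, Lamb2 and Lamc1 in all 4 libraries. In P1 pHes1_ENCs, Lamc1 and Lamc3 differed by less than in any other library, though their intervals of 3.85 to 4.52 and 3.14 to 3.84 did not overlap. Lama5, Lamb1 and Lamc3 were chosen after their values were seen.

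Of the proteins that link the networks, none was called lower in pHes1_EPCs. Agrn encodes agrin, which binds laminin and dystroglycan, and the range of its ratio between the fractions included 1 at both ages. Its FPKM was 68.7 in P1 pHes1_ENCs, 66.8 in P1 pHes1_EPCs, 48.6 in P4 pHes1_ENCs and 50.8 in P4 pHes1_EPCs, a ratio of 0.972 (range 0.926 to 1.02) and 1.05 (range 0.989 to 1.10). Fn1, the gene of fibronectin and a ligand of several integrins, was called higher in pHes1_EPCs, with 8.27 and 28.7 at P1 and 6.97 and 18.2 at P4. It was the 1 gene of the 20 called higher at both ages whose ratio was smaller at P4 with ranges that do not overlap, at 3.47 (range 3.13 to 3.80) and 2.61 (range 2.34 to 2.88). Hspg2, the gene of perlecan, was low and slightly lower in pHes1_EPCs, with 2.32 and 1.83 at P1 and 0.944 and 0.782 at P4. Nid1 and Nid2, the nidogens that bridge laminin and collagen IV, were highest in P4 pHes1_EPCs, at 1.51 and 0.783, beside 0.175 and 0.0504 in P4 pHes1_ENCs. The P4 difference of Nid1, 1.09, was called, but it was close to the threshold and was not followed under other scalings. Nid2, which could not be called, was 15.6 times higher in pHes1_EPCs at P4 (range 6.21 to 113). The span of Nid2 overlaps that of 2700060E02Rik by 386 bases. Hspg2, Nid1 and Nid2 were chosen after their values were seen.

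Integrin α subunits decide which ligand the receptor binds, and the 2 fractions held them in different proportions. In pHes1_ENCs the leading pair was Itga3, of the laminin receptor with β1, and Itga4, of the receptor for fibronectin and VCAM1. Itga3 lies at chr11:94905796-94938028 and Itga4 at chr2:79095583-79173271. Itga3 had FPKM of 5.23 in P1 pHes1_ENCs, 1.21 in P1 pHes1_EPCs, 17.2 in P4 pHes1_ENCs and 3.19 in P4 pHes1_EPCs. Itga4 had 5.14, 1.15, 9.78 and 2.55, in the same order. They were the 2 genes called lower in pHes1_EPCs at both ages, with Itga3 higher in pHes1_ENCs by 4.31 times at P1 (range 3.32 to 5.71) and 5.39 times at P4 (range 4.47 to 6.40), and Itga4 by 4.48 times (range 3.72 to 5.45) and 3.84 times (range 3.33 to 4.44). Together they made up 52.7% of the FPKM of all 12 α subunits in P1 pHes1_ENCs and 87.2% in P4 pHes1_ENCs, but 7.92% and 20.2% in pHes1_EPCs.

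The Itga4 values carry a limit of annotation. In NCBI37/mm9 the end of Itga4 overlaps the end of Cerkl, a gene of photoreceptors read from the other strand, by 624 bases, which is 0.803% of the Itga4 span. Cerkl had FPKM of 6.11 in P1 pHes1_ENCs, 0.377 in P1 pHes1_EPCs, 19.2 in P4 pHes1_ENCs and 1.81 in P4 pHes1_EPCs, the same order of libraries as Itga4. Whether the counting used strand is not given in the sources used here, and the part of Cerkl reads in the Itga4 values was not tested. Itga3 has no such overlap. The summed FPKM of 3 marker lists was also lower in pHes1_EPCs. In each of the 3 sums the libraries stood in the same order as for Itga3 and Itga4. For rods the sum was 572, 36.6, 2569 and 524, with 6 of 7 markers called lower at P1 and 7 at P4. It was 108, 0.353, 322 and 3.95 for red blood cells, with 2 of 5 markers called lower at P1 and 3 at P4. For astrocytes it was 37.6, 6.98, 63.5 and 25.8, with 1 of 7 called lower at each age and 1 called higher at P4. Slc1a2, a glutamate transporter, carried the astrocyte sum, and the other 6 markers summed to 3.94, 5.32, 7.52 and 15.6, more in pHes1_EPCs at both ages. Pdgfra, also on the fibroblast list, held most of this remainder, at 2.66, 3.78, 4.11 and 11.1. Aqp4, S100b and Aldh1l1 were also higher in pHes1_EPCs at both ages. Pax2 was lower there at both ages, at 0.489, 0.324, 1.03 and 0.954. Gfap was lower there at P4, with 1.21 in pHes1_ENCs and 0.860 in pHes1_EPCs. The part of these cells in the Itga3 and Itga4 values was not tested.

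In pHes1_EPCs other α subunits led. Itga6, of laminin receptors, was the highest at P1, with 3.34 and 11, and had 1.08 and 3.21 at P4. Itgav, of receptors for vitronectin, fibronectin and latent TGF-β, had 2.87 and 7.35 at P1 and 1.62 and 9.42 at P4. Itga9, of receptors for tenascin C and fibronectin, had 0.315 and 2.01 at P1, then 0.158 and 4.82 at P4. The order in pHes1_EPCs changed between the ages from Itga6 before Itgav to Itgav before Itga9, each step with intervals that do not overlap, and at P4 Itga6 and Itga3 followed with overlapping intervals. Among the integrins that reached an FPKM of 1, Itga9 had the largest ratio, 6.40 (range 4.44 to 9.80) at P1 and 30.5 (range 19.6 to 57.3) at P4. Itga2, of a collagen receptor, was at 0.870 and 3.12 at P1 and 0.401 and 2.48 at P4. Itga5, of the main fibronectin receptor, was at 0.865 and 3.03 at P1 and 0.330 and 1.86 at P4. In P1 pHes1_EPCs the intervals of Itga2 and Itga5 overlapped. The other collagen-binding subunits, Itga1, Itga10 and Itga11, stayed at or below 0.535, and so did the laminin-binding subunit Itga7 and the subunit Itga8.

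Only 3 of the 8 β subunits reached an FPKM of 1, and all 3 were called higher in pHes1_EPCs at both ages. Itgb1, the partner of most α subunits, had FPKM of 27.5 in P1 pHes1_ENCs, 62.4 in P1 pHes1_EPCs, 16.5 in P4 pHes1_ENCs and 71.6 in P4 pHes1_EPCs. Itgb5, a partner of αv, had 21, 57, 19 and 76. Itgb8, the αv partner that activates TGF-β, had 5.65, 13.4, 3.19 and 7.38. The ratio was 2.27 (range 2.07 to 2.46) and 4.34 (range 3.92 to 4.76) at P1 and P4 for Itgb1, 2.72 (range 2.48 to 3.01) and 4.01 (range 3.68 to 4.45) for Itgb5, and 2.37 (range 1.93 to 2.89) and 2.32 (range 1.76 to 3.0) for Itgb8. The P4 differences of Itgb8, at 1.00, and Itga6, at 1.02, were at the threshold and were not called under 3 other scalings. Itgb1 and Itgb5 led in all 4 libraries, and their intervals overlapped only in P1 pHes1_EPCs. The leukocyte subunits Itgb2 and Itgb7, the platelet and vessel subunit Itgb3 and the epithelial subunits Itgb4 and Itgb6 did not exceed 0.210. Microglia markers summed to 2.80, 14.6, 8.40 and 14.4 in P1 pHes1_ENCs, P1 pHes1_EPCs, P4 pHes1_ENCs and P4 pHes1_EPCs, with 4 of 10 called higher in pHes1_EPCs at P1 but 1 at P4.

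**Figure D4:**
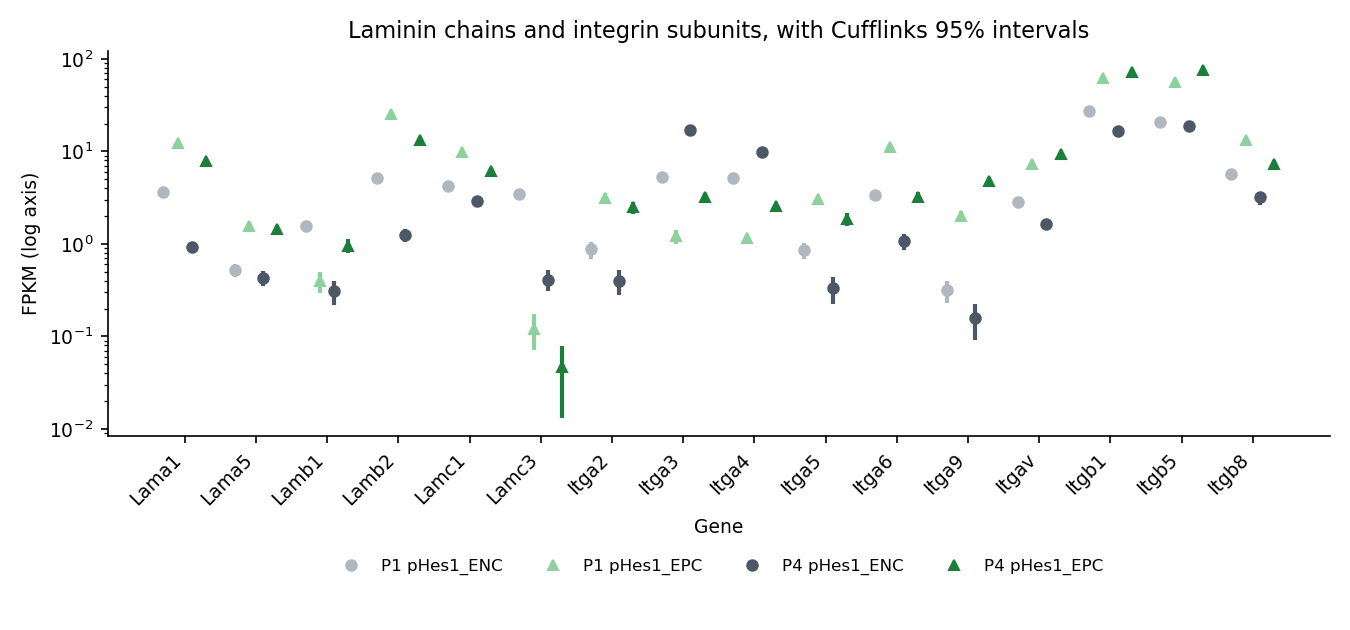
FPKM on a log axis of 6 laminin chains, 7 integrin α subunits and 3 integrin β subunits in the 4 libraries, with circles for pHes1_ENCs, triangles for pHes1_EPCs, pale colors for P1 and dark colors for P4, and vertical lines for the 95% intervals of Cufflinks. The circles of Lamc3, Itga3 and Itga4 lie above their triangles at both ages, whereas Lamb1 has its circle above at P1 and its triangle above at P4.

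Between P1 and P4 more genes were called in pHes1_ENCs than in pHes1_EPCs. In pHes1_ENCs 13 of the 79 were called lower at P4 (5.94% of all genes) and 4 were called higher (2.77%). The 13 were Col2a1, Col9a1, Col9a2, Col9a3, Col23a1, Col4a1, Col4a2, Col5a2, Col6a1, Lama1, Lamb2, Lamc3 and Itga6, with differences from -1.06 for Itga6 to -2.96 for Col6a1. The 4 were Col16a1, Col17a1, Col5a3 and Itga3, with 1.05, 1.94, 1.21 and 1.55. In pHes1_EPCs, 2 genes were called higher, the collagen VIII chains, and 1 lower, Itga6 at -1.51 (2.57% of all genes). With the same FPKM sum in each library the split in pHes1_EPCs was 1 higher and 6 lower, beside 2.13% and 4.54% of all genes. Of the 20 genes called higher in pHes1_EPCs at both ages, all 20 had a lower FPKM at P4 than at P1 in pHes1_ENCs, 18 of them with intervals that do not overlap. In pHes1_EPCs 9 of the 20 were lower and 6 higher at P4 with intervals that do not overlap. The 6 had P4 to P1 ratios of 1.15 for Itgb1, 1.26 for Col9a3, 1.28 for Itgav, 1.33 for Itgb5, 1.62 for Col2a1 and 2.39 for Itga9. The FPKM of all genes summed to 294772 in P1 pHes1_EPCs and 372002 in P4 pHes1_EPCs. Counts by interval were not repeated under other scalings of the libraries. The median ratio of these 20 genes was 3.49 at P1 and 6.94 at P4. The ratio was larger at P4 for 17, with ranges that do not overlap for 13. The 20 were picked by their difference at each age in these same libraries, so these counts and medians describe them and no more. The same counts were not made over all genes. Over the same days the 8 S phase genes were called lower in pHes1_EPCs, 7 of them also in pHes1_ENCs, and 7 of 7 rod genes were called higher in both fractions. Their part in the changes of the matrix genes with age was not tested.

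The other genes of matrix assembly and adhesion were taken from lists by function and read against the same background of 6.10% higher and 6.79% lower at P1 and 9.85% and 5.42% at P4. Of 24 enzymes and chaperones of collagen synthesis, 5 were called higher at P1 and 7 at P4, while 0 and 1 were called lower, with a median difference of 0.06 and 0.29. They included the lysyl hydroxylases Plod1, at 4.83 and 13.8 at P1 and then 4.06 and 24.2 at P4, and Plod2, at 6.25 and 20.5 and then 2.39 and 21.5. Serpinh1, the collagen chaperone Hsp47, had 50.9 and 74.4 at P1 and 29.8 and 105.7 at P4. Among 16 matrix proteases and inhibitors 3 were called higher and 3 lower at P1, and 5 and 1 at P4. Mmp14, a membrane-bound collagenase, was at 21.7 and 73.3 at P4, Adamts1, which cuts proteoglycans, at 2.92 and 17, and the inhibitor Timp2 at 8.09 and 23.4.

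Of 20 integrin adaptors, the proteins that join integrins to actin, 1 was called higher and 1 lower at P1, and 4 and 2 at P4, with medians of 0.27 and 0.28. The 3 named by rule were Parva, which binds integrin-linked kinase, at 5.12 in pHes1_ENCs and 23.8 in pHes1_EPCs at P4, the kinase Src at 16.9 and 60.2, and zyxin (Zyx) at 4.43 and 17.9. Of 10 other collagen and laminin receptors, 3 were called higher and 1 lower at P1, and 5 and 1 at P4. Cd44, the hyaluronan receptor, was at 0.841 and 17.9 at P4 and the syndecan Sdc1 at 0.496 and 5.25, but another syndecan, Sdc3, was at 29.9 and 7.86. Of 29 other matrix proteins, 4 were called higher and 5 lower at P1, and 7 and 2 at P4. Sparc, a collagen-binding protein, had 24.3 and 136 at P1, then 16.2 and 374 at P4, and the last value exceeded that of each of the 79 genes. Smoc1, a relative of Sparc, was at 1.69 and 16 at P4, and elastin (Eln) at 0.439 and 5.13.

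The dystroglycan complex is the other main laminin and agrin receptor, and its genes were called in both directions. Of its 20 genes 2 were called higher and 2 lower at P1, and 1 and 3 at P4, with medians of 0.14 and 0.10. Among those that reached an FPKM of 10, the 3 with the largest P4 difference were lower in pHes1_EPCs. Sntb1, a syntrophin below that level, was higher, with 0.725 and 8.55 at P4. Dag1, the gene of dystroglycan itself, was called higher in pHes1_EPCs at P1, with 29.4 and 74.7, a difference of 1.31. The P4 difference of Dag1 was 0.49 and was not called. Sntb1 and Dag1 were chosen after their values were seen. Egflam, the gene of pikachurin, a dystroglycan ligand at photoreceptor synapses, had FPKM of 40.4 in P1 pHes1_ENCs, 2.58 in P1 pHes1_EPCs, 106.0 in P4 pHes1_ENCs and 16.2 in P4 pHes1_EPCs. Dystrophin (Dmd) was at 9.08, 3.43, 22.7 and 6.19, and Pomt2, which adds sugars to dystroglycan, at 16.2, 10.7, 28.5 and 11.8. Genes with an integrin symbol that the rule left out numbered 9, and none was called. Only 1 of them reached an FPKM of 1, so the others could not be called. It was Itgb1bp1, at 7.61 and 13.4 at P4. Those lists were not drawn from the values but were written with earlier results of these data known.

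**Figure D5:**
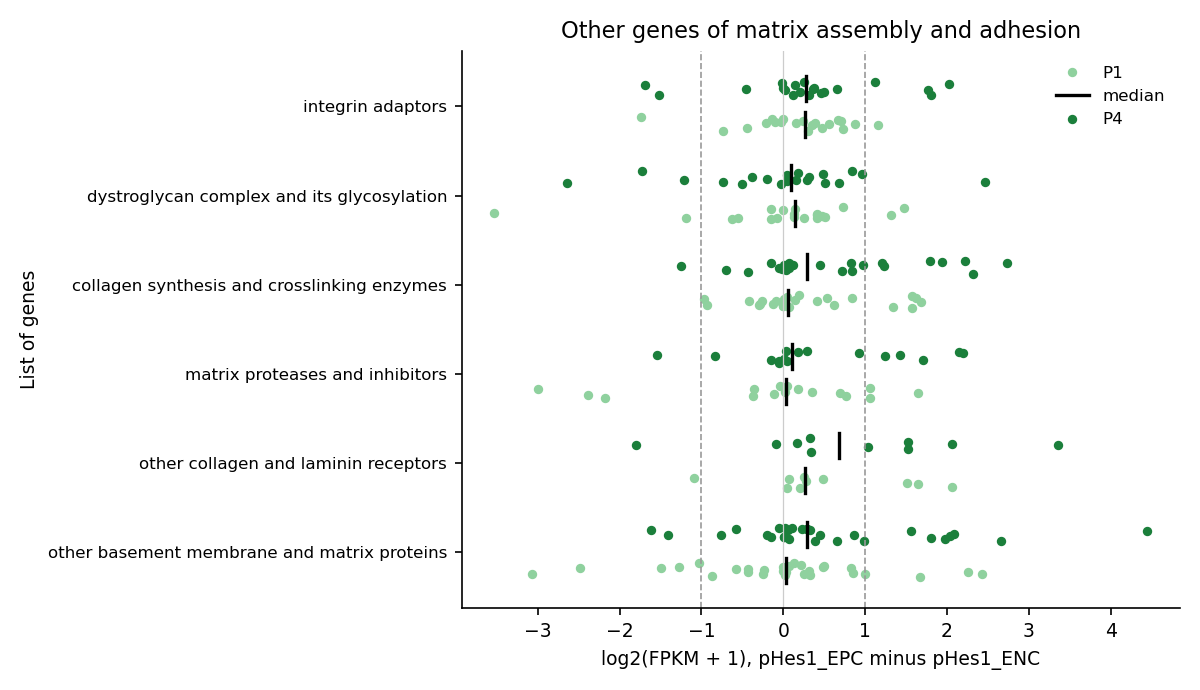
Difference in log2(FPKM + 1) between pHes1_EPCs and pHes1_ENCs for the genes of 6 lists, with 1 point per gene, pale for P1 and dark for P4, black bars at the medians and dashed lines at the 2-fold threshold. Points are spread vertically only to keep them apart. The medians lie between 0.03 and 0.69, and Egflam at P1 and Sparc at P4 are the points farthest to the left and right.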

How the data were processed

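RNA from the 4 sorted populations was measured by RNA-seq. The authors aligned single-end reads to NCBI37/mm9 with TopHat2 2.0.8b and estimated FPKM per gene with Cufflinks 2.1.1. The deposited FPKM come with their 95% intervals and a status flag, and the processing notes also list bcl2fastq 1.8.4. In each library 9.06% to 10.4% of all lines had an FPKM outside their own interval. Of the 79 genes this held for 1, Col9a1 in P1 pHes1_EPCs. Reads and counts were not used here. The read depth, inferred from interval widths, was 10.8 to 11.4 in units of 1e6 reads. Whether reads were counted by strand is not given in the sources used here.

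The deposited tables held 23021 lines with 22558 symbols. Small RNA lines (794) were left out, and of the 234 symbols with several lines, none of the 79 genes among them, the line with the highest summed FPKM was kept, which left 21830 genes. All 79 had the status OK and overlapped their gene in GENCODE vM1. Computations used Python 3.11.15, numpy 2.4.6, pandas 2.3.3 and matplotlib 3.10.9, and the procedure was tested on simulated data. The pseudocount was 1 and the threshold 2-fold. Members were named if they reached an FPKM of 10, if they reached 1 and differed by more than 2-fold at both ages, or if they reached 1 and lay within 100 kb of another member. This gave 30 genes, and others are marked in the text. From each pathway list, the 3 genes with the largest P4 difference among those of FPKM 10 or more were named. The members and lists were chosen with earlier results of these data known. The 8 alternatives were another pseudocount, a filter on FPKM, 3 scalings, summed lines, status, and intervals that do not overlap.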

Additional observations from a re-analysis of the deposited data

Results flagged for a closer look

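Col6a1 was singled out because its libraries moved in opposite directions at the 2 ages. On the log2(FPKM + 1) scale, pHes1_EPCs minus pHes1_ENCs gave -1.18 at P1, against 1.13 at P4. The difference between the ages was not tested, as each group is 1 library.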

How the results depend on the processing

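No paired analysis was possible because each group is 1 library, and no replicate could be left out. Of the 88 values for counts and medians under the 8 alternatives, 72 stayed within the limits set for a change and 16 moved. Summed lines and the status filter could change none of them, as no member had several lines and all had the status OK. The filter on FPKM could change no count, since genes below 1 cannot be called. The limits were wide, as a fall in higher calls at P4 from 28 to 20 stayed within them. With a pseudocount of 0.1 the median difference was 0.53 at P1 and 0.83 at P4, lower calls in pHes1_EPCs numbered 11 at P1 and 9 at P4, and the calls between the ages were 12 higher and 6 lower in pHes1_EPCs and 22 lower in pHes1_ENCs. The shares of all genes were then 11.3%, 8.99%, 7.85%, 5.32% and 11.5%, in that order. When a compared library had to reach an FPKM of 1, the median difference was 1.12 at P1 (37 genes) and 1.24 at P4 (39 genes), since fewer genes entered. With the same FPKM sum in each library, 18 genes were called higher in pHes1_EPCs at P4, and between the ages in pHes1_EPCs 1 was called higher and 6 lower. The latter were 1 and 3 with median-of-ratios size factors, beside 2.69% and 3.68% of all genes. After quantile normalization they were 1 and 4, beside 2.72% and 3.42%. Quantile normalization also gave 20 higher and 6 lower calls in pHes1_EPCs at P4, beside 7.06% and 7.11% of all genes. Over all genes, the same FPKM sum moved the P4 split from 9.85% higher and 5.42% lower to 7.03% and 7.64%, and the median P4 difference of genes at 1 or more in all libraries from 0.15 to -0.11. Among values of named genes, 454 kept their side of the threshold, 20 fell below it and 4 passed it. Those under summed lines, the status filter and the filter on FPKM could not change. The sign changed for 1 gene, Agrn at P4, which was not called, from 0.06 to -0.22 with the same FPKM sum, -0.11 with size factors and -0.16 after quantile normalization. Among the genes named by rule, the 2-fold call at P4 was lost under at least 1 scaling by Col1a1, Col4a2, Col4a5, Col6a1, Fn1, Itga5, Itga6 and Itgb8, and at P1 by Lamc1. Calls between the fractions of genes outside that rule, such as Nid1 and Col8a2, were not followed singly. Genes below an FPKM of 1 rest on fewer reads and have wide ranges, such as 6.21 to 113 for the P4 ratio of Nid2, and it is the added 1 that keeps them from being called.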
